A study of Mus musculus with 3 samples.

Results

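Pigr, Reg3g, Reg3b and Gm43305 are 4 of the 32285 genes counted in single-cell RNA-seq of mouse small intestinal organoids, and they were chosen by their measured level, which was higher in the library called LApcL than in the library called LApc. The LApcL-to-LApc difference is therefore given as a description and supports nothing. The WT level, the spread over cells, the detection of the genes in the same cells and the levels of their relatives were not part of the choice. Comparisons with WT still reuse the LApcL or LApc level, and the shares of cells follow those levels. The close relatives set beside them were 5 genes of the Reg family (Reg1, Reg2, Reg3a, Reg3d and Reg4) and 6 genes related to Pigr (Fcamr, Fcmr, Cd300lf, Cd300lb, Cd300lg and Cd300a).

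Each of the 3 groups was 1 library from C57BL/6 mice that received 2 doses of tamoxifen (2 mg) at an age of 7 to 8 weeks, and the organoids were taken at passage 3, day 6 of culture. WT organoids are labeled as wild type and were analyzed 21 days after tamoxifen. LApc organoids came from Lgr5-CreERT2;Apc fl/fl mice, in which tamoxifen activates a Cre recombinase in cells expressing the stem cell gene Lgr5 so that it deletes Apc, a brake on Wnt signaling, and they were analyzed after 29 days. LApcL organoids came from mice with the same Cre and Apc fl/fl that were also Lef1 fl/fl, so that Lef1, a DNA-binding factor of the Wnt pathway, was targeted as well, and they were analyzed after 21 days. The Cre acts in Lgr5-expressing cells only. With 1 library per group no test between groups exists, and the differences between mice and cultures cannot be told apart from those between genotypes.

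Pigr encodes the polymeric immunoglobulin receptor, which carries dimeric IgA and pentameric IgM from the basal to the luminal side of epithelial cells and is shed with its cargo as secretory component. Reg3g and Reg3b encode secreted C-type lectins of the intestinal epithelium that bind bacteria, and both are known to be induced by microbes and by interleukin-22 through Stat3. Gm43305 is annotated as a noncoding processed transcript, and its function is not known.

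Pigr lies on chr1:130826684-130852249 (plus strand, mm10/GRCm38, GENCODE M21). Reg3b lies on chr6:78370657-78373466 (plus strand), and Reg3g lies on chr6:78466269-78468872 (minus strand). The stretch of 92.8 kb between Reg3b and Reg3g holds Reg3d, Reg3a, Reg2 and Reg1, whereas Reg4 is on chromosome 3. Gm43305 lies on chr14:54292443-54297456 (minus strand). The Reg3 genes are paralogs of similar sequence, and how the counting divided reads among them was not tested.

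The promoter stretches of the 4 genes are shown because Reg3g and Reg3b were detected in the same cells and because Lef1 belongs to a family of factors that bind a known DNA motif. Each is the RefSeq sequence from 150 to 20 bases before the gene start (GRCm38.p6, strand of the gene), with motif matches in capitals. The Reg3b window lies inside the GENCODE gene, since GENCODE also annotates an earlier start.
Reg3g, chr6:78468894-78469024: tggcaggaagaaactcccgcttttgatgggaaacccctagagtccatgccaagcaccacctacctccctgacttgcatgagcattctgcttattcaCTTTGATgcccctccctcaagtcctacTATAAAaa
Reg3b, chr6:78370735-78370865: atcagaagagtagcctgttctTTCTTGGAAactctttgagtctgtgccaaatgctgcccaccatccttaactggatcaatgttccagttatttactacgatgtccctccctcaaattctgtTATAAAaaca
Pigr, chr1:130826534-130826664: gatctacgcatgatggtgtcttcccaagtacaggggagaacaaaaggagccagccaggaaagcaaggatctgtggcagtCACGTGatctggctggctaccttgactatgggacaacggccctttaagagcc
Gm43305, chr14:54297508-54297638: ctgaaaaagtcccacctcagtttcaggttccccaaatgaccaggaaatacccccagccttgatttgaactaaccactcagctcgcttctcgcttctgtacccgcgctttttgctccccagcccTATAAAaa

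The Reg3g stretch held the TCF/LEF letters CTTTGAT at 54 to 48 bases before the start, which 3.73% of 32851 promoter windows of 300 bases hold on either strand. Reg3b, Pigr and Gm43305 held neither CTTTGAT nor the variant CTTTGAA (5.14% of windows). Reg3b held the STAT letters TTCNNNGAA at 129 to 121 bases before the start, and Pigr held them 40 to 48 bases after the start (8.30% of windows). Pigr also held the E-box CACGTG at 71 to 66 bases before the start (7.15% of windows), and Reg3g, Reg3b and Gm43305 each held TATAAA within 30 bases of the start (13.6% of windows). None of the 4 windows held the motifs searched for NF-kB (0.411% of windows), interferon factors (3.44%) or HNF4 (0.475%). The printed stretches of Reg3g and Reg3b were identical at 65.2% of aligned columns, compared with 46.2% to 53.7% for Reg3g or Reg3b against Reg3a, Reg3d, Reg1 or Reg4 in the pairs aligned and 50.3% for Reg3g against Pigr. A match of letters does not show that a factor binds there.

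**Figure D1:**
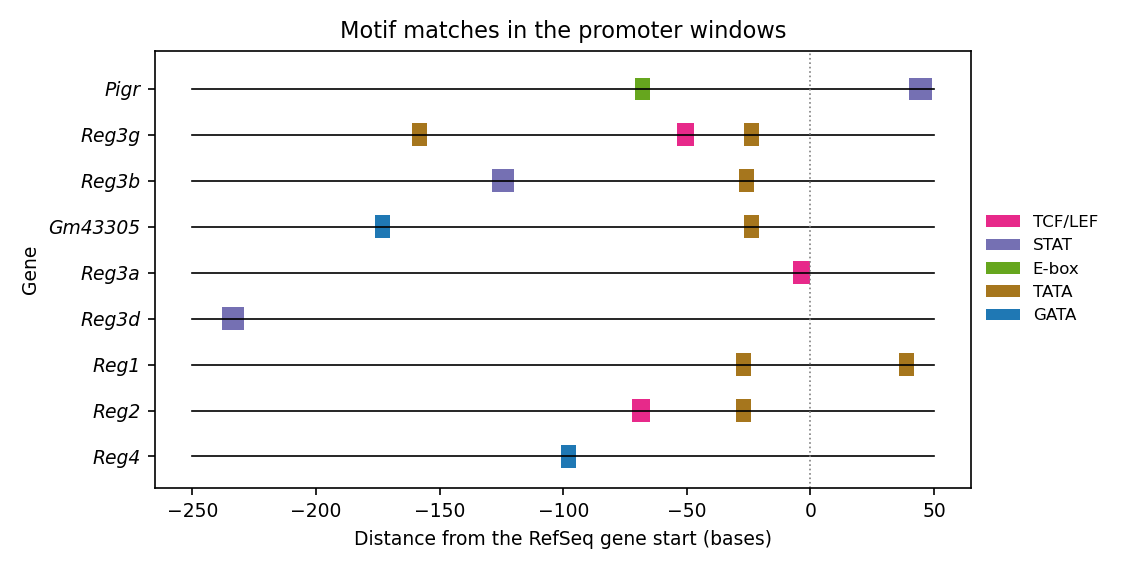
Motif matches by distance from the RefSeq gene start (bases, dotted line at the start) in the windows of the 4 genes and 5 Reg relatives, each box being 1 match on either strand. TCF/LEF letters fell in the windows of Reg3g, Reg3a and Reg2, and STAT letters in those of Pigr, Reg3b and Reg3d.

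Cells were barcodes found in 1 library only, with at least 10000 UMIs (unique molecular identifiers, each tagging 1 captured RNA molecule) and at most 20% mitochondrial UMIs. This left 1208 WT, 2161 LApc and 1931 LApcL cells, with medians of 38073.5, 34377 and 32584 UMIs per cell. Between 27.3% and 30.3% of the barcodes of each library were also present in another library and were left out. These shared barcodes were rich in the endothelial gene Pecam1, detected in 39.7% to 41.4% of them at 500 UMIs per barcode, whereas the kept cells had Epcam, an epithelial gene, in 43.5% to 62.7% and Pecam1 in at most 0.231%. Lef1 was counted at 0.961 CPM (UMIs per 1e6 UMIs of the library) in WT, 72.0 CPM in LApc and 47.8 CPM in LApcL. Apc was counted at 20.0 CPM in WT, 88.5 CPM in LApc and 95.4 CPM in LApcL, so that the targeted Apc was higher, not lower, in both Apc-targeted libraries. These 3′ counts do not measure the deletion of an exon and do not check the labels. Enterocyte markers summed to 22565 CPM in WT but to 13.6 CPM in LApc (0 of 11 at 0 UMIs) with 15.7 CPM in LApcL (1 of 11 at 0 UMIs). Immune markers (at most 0.781 CPM in sum) and fibroblast markers (at most 1.74 CPM) were near 0 in every library. The LApc library also differed by its 29 days and by its sex chromosome genes, with Xist at 1281 CPM and Eif2s3y at 0 UMIs, whereas Eif2s3y was at 69.6 CPM in WT and 66.9 CPM in LApcL. The sex of the mouse, the days after tamoxifen and the Lef1 genotype cannot be told apart between LApcL and LApc.

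Pigr, the immunoglobulin carrier, was highest in WT at 431 CPM (95% Poisson interval 425 to 436, counting error only, as for all intervals here). The LApc library had 18.5 CPM (17.6 to 19.4). LApcL lay between them at 202 CPM (199 to 205). The Pigr level was thus 23.3-fold lower in LApc than in WT, but only 2.13-fold lower in LApcL than in WT (exact conditional binomial interval 2.08 to 2.17). Between the libraries that chose it, Pigr was 10.9-fold higher in LApcL than in LApc (10.4 to 11.5).

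Reg3g, an antibacterial lectin, stood at 9.71 CPM (8.86 to 10.6) in the WT library. In LApc it reached 47.1 CPM (45.7 to 48.5), and in LApcL 287 CPM (283 to 290.5). The levels thus rose in the order WT, LApc and LApcL, and no interval overlapped its neighbor. Reg3g was 29.5-fold higher in LApcL than in WT (27.0 to 32.4) and 4.85-fold higher in LApc than in WT (4.41 to 5.34).

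Reg3b, its close paralog, had 18.7 CPM (17.5 to 19.9) in the WT library. In LApc it had 810.5 CPM (805 to 816), and in LApcL 1600.2 CPM (1591 to 1609). Its order was that of Reg3g. Reg3b was 43.5-fold higher in LApc than in WT (40.7 to 46.4). LApcL was 1.97-fold above LApc (1.96 to 1.99), a value just under 2-fold. The number of Reg3b UMIs for each Reg3g UMI was accordingly 1.92 (1.72 to 2.15) in WT, 17.2 (16.7 to 17.7) in LApc and 5.58 (5.50 to 5.66) in LApcL.

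Gm43305, the noncoding transcript, had 44.6 CPM (42.8 to 46.6) in the WT library. In LApc it had 37.7 CPM (36.4 to 39.0), and in LApcL 321 CPM (317 to 325). It was thus 1.18-fold lower in LApc than in WT (1.12 to 1.25) and was 7.19-fold higher in LApcL than in WT (6.88 to 7.51).

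On the log2 scale, with 1 CPM added, the LApcL-to-LApc ratio was 3.38 for Pigr, 3.06 for Gm43305, 2.58 for Reg3g and 0.98 for Reg3b. Among the 3344 genes that reached 50 CPM in LApcL or LApc these were the 2nd, 3rd, 5th and 41st highest values, with Aldh1b1 (0.99) just above Reg3b and Smc2 (0.96) just below it. Of the 4 genes, 3 passed 2-fold, beside 1.49% of the 10376 genes that reached 5 CPM in either library (3.76% were over 2-fold lower), and because this contrast chose the genes nothing is read from the count. Against WT, 3 of the 4 were over 2-fold higher in LApcL, beside 27.2% of 10633 genes, and Pigr was over 2-fold lower, beside 10.6%. In LApc, Reg3g and Reg3b were over 2-fold higher than in WT, beside 24.5% of 10735 genes, and Pigr was lower, beside 9.82%. The 3 comparisons share libraries and are not independent. The LApcL and LApc levels entered the choice of the genes, so nothing is read from the counts against WT either. Scaling by the median of ratios in place of the totals shifted the scale by -0.46 on the log2 scale in LApcL against WT and by -0.45 in LApc against WT. With 1 CPM added, the ratios of LApcL against WT then were -1.54 for Pigr, 4.32 for Reg3g, 5.90 for Reg3b and 2.37 for Gm43305, and no member changed direction in any of the 3 comparisons.

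**Figure D2:**
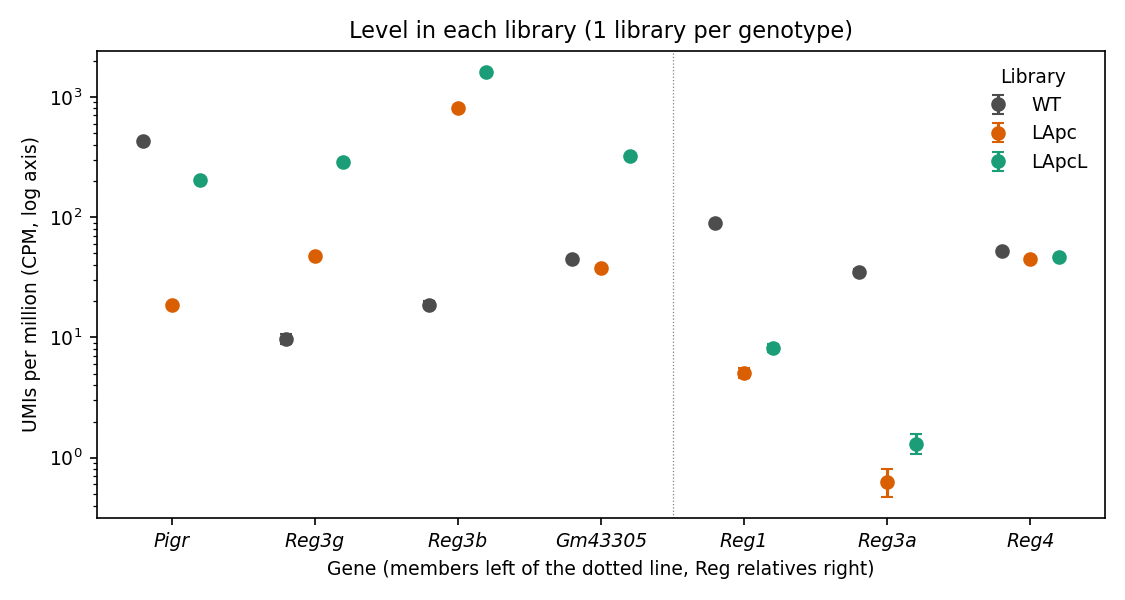
Level of the 4 genes and of Reg1, Reg3a and Reg4 in each library, in CPM on a log axis, with 1 point per library and bars for the 95% Poisson interval. Pigr was highest in WT, the Reg3g, Reg3b and Gm43305 points were highest in LApcL, and Reg1 and Reg3a were highest in WT.

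The Reg family did not move as a group. Reg1, a secreted family member also known from pancreatic exocrine cells, was 89.3 CPM in WT, 5.04 CPM in LApc and 8.19 CPM in LApcL. Reg3a, which lies near Reg3b, was 35.3 CPM in WT, 0.627 CPM in LApc and 1.30 CPM in LApcL. Thus Reg1 and Reg3a were low in both Apc-targeted libraries, where Reg3g and Reg3b were above their WT level. Reg4, a family member of goblet and enteroendocrine cells, was 52.5 CPM in WT, 45.1 CPM in LApc and 46.8 CPM in LApcL. Reg2 had 0, 1 and 13 UMIs and Reg3d had 5, 1 and 1 UMIs in WT, LApc and LApcL. Of the 2 relatives with at least 5 CPM in LApcL or LApc, neither passed 2-fold, with log2 ratios of 0.60 for Reg1 and 0.05 for Reg4. The median log2 ratio over the 10376 genes was 0.04.

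Genes beside Pigr and Gm43305 on the chromosome stayed low or did not share the difference. Fcamr, an Fc receptor gene before Pigr, had 3, 1 and 3 UMIs in WT, LApc and LApcL. Fcmr, an IgM receptor gene after it, had 6, 25 and 99 UMIs, which is 4.47-fold higher in LApcL than in LApc (2.86 to 7.24) at a level of 1.23 CPM. None of the 6 Pigr relatives reached 5 CPM, and Cd300lb had 0 UMIs in all 3 libraries. The Gm43305 neighbors Dad1, a subunit of the oligosaccharyltransferase complex, and Abhd4 had log2 ratios of -0.37 and -0.49 in LApcL against LApc.

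To compare cells at equal depth, each cell was thinned at random to 10000 UMIs. Pigr was then detected in 86.7% of WT cells (exact binomial interval 84.6 to 88.5), in 8.19% of those of LApc (7.07 to 9.43) and in 57.9% of those of LApcL (55.7 to 60.2). Without thinning the shares were 95.9%, 17.4% and 75.7%. The mean in cells with a UMI was 5.21 UMIs for WT, 2.07 for LApc and 3.70 for LApcL, so that both the share of cells and the amount per positive cell lay between WT and LApc in the LApcL library. In LApc, the top 10% of cells held 90.4% of all Pigr UMIs, compared with 33.8% in WT and 47.2% in LApcL.

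Reg3g was detected in 6.87% of WT cells (5.51 to 8.45), in 10.6% of those of LApc (9.37 to 12.0) and in 49.8% of those of LApcL (47.6 to 52.1), and in 16.3%, 18.0% and 66.2% without thinning. Positive cells held a mean of 1.54, 3.30 and 4.99 UMIs. The share of Reg3g-positive cells differed little between WT and LApc, with intervals that did not overlap, while the amount per positive cell was larger in LApc. Cells with at least 10 Reg3g UMIs made up 0.0828% of WT, 0.694% of LApc and 6.84% of LApcL.

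Reg3b was detected in 2.48% of WT cells (1.68 to 3.53), in 26.6% of those of LApc (24.7 to 28.5) and in 59.5% of those of LApcL (57.3 to 61.7), and in 5.13%, 45.6% and 73.3% without thinning. Its mean in positive cells was 9.53 UMIs for WT, 21.3 for LApc and 21.8 for LApcL. Cells with at least 10 Reg3b UMIs made up 0.662% of WT, 8.61% of LApc and 25.7% of LApcL. The UMIs were concentrated in few cells: the top 1% of cells held 91.2% of Reg3b UMIs for WT, 43.8% for LApc and 22.8% for LApcL. A single LApc cell reached 3104 Reg3b UMIs before thinning, and a single LApcL cell reached 2840.

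Gm43305 was detected in 32.6% of WT cells (30.0 to 35.3), in 25.9% of those of LApc (24.0 to 27.8) and in 88.8% of those of LApcL (87.3 to 90.1), and in 67.8%, 56.5% and 97.0% without thinning. Positive cells held means of 1.44, 1.46 and 3.74 UMIs. In LApcL the median cell held 3 Gm43305 UMIs and the top 1% of cells held 6.01% of its UMIs, so that the transcript was spread over nearly all cells, unlike Reg3b.

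**Figure D3:**
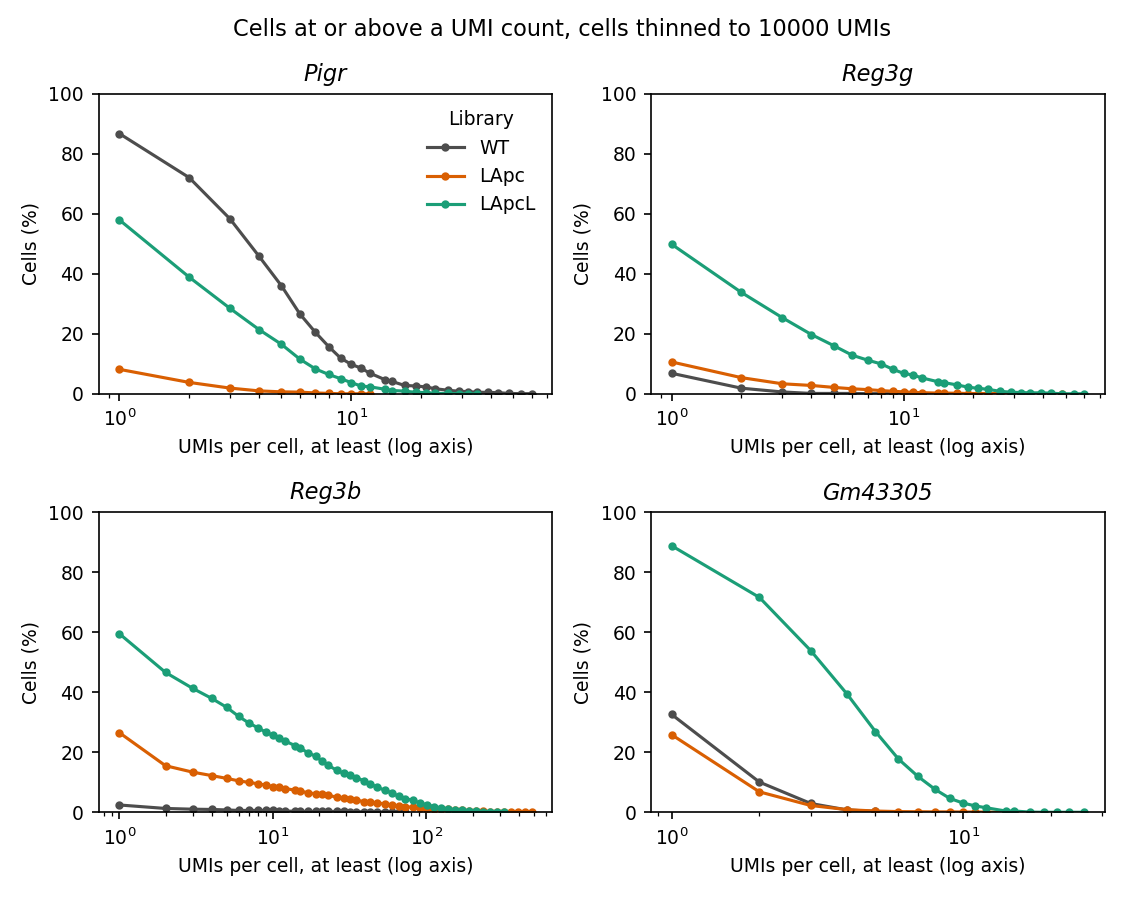
Share of cells (%) with at least the number of UMIs on the log x axis, after thinning to 10000 UMIs per cell, for WT, LApc and LApcL. The Pigr curve of LApcL runs between WT and LApc, the Reg3b curves of LApc and LApcL meet above 100 UMIs, and Gm43305 starts at 88.8% in LApcL and falls to 3.11% at 10 UMIs.

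The shares were set against those of the shared barcodes, which were poor in Epcam (at most 1.02% of them) and served as the background. At 500 UMIs per barcode, Pigr was found in 17.1% of the WT cells, 0.740% of the LApc cells and 8.80% of the LApcL cells, against 0.248%, 0.0314% and 0.0619% of shared barcodes. Reg3g was found in 0.331%, 1.02% and 9.17% of cells against 0.0310%, 0.126% and 0.248%. Reg3b was found in 0.662%, 8.10% and 23.7% of cells against 0%, 0.314% and 0.495%, where 0 of 3225 WT barcodes has an upper limit of 0.114%. Gm43305 was found in 1.57%, 1.99% and 14.1% of cells against 0.589%, 0.754% and 1.11%. Cells lay above the background with intervals that did not overlap in every case but Reg3g in WT, whose share is read as background at this depth. Summed over all UMIs, Reg3g in WT was 9.71 CPM (8.86 to 10.6) in cells and 4.44 CPM (3.12 to 6.11) in shared barcodes. The shared barcodes had medians of 2164, 1499 and 1602.5 UMIs before thinning in WT, LApc and LApcL, far below the medians of the cells.

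Reg3g and Reg3b were detected in the same cells. In LApc, 79.6% of Reg3g-positive cells also had Reg3b, compared with 20.2% of cells without Reg3g. In LApcL the shares were 78.3% and 40.9%, and in WT 9.64% and 1.96%, where only 8 cells had both. Spearman's rho over cells was 0.13 in WT, 0.49 in LApc and 0.59 in LApcL, as a description of cells that share a library. The reverse share differed more between LApc and LApcL, as did the Reg3g share over all cells (10.6% and 49.8%). In LApc, Reg3g was present in 31.9% of Reg3b-positive cells and 2.96% of cells without Reg3b. In LApcL these shares were 65.5% and 26.7%.

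The other pairs were only weakly tied, with rho between 0.00 and 0.12 in all 3 libraries. In LApcL, Reg3b was found in 63.7% of cells with Pigr and 53.7% of cells without it. Gm43305 was found in 89.8% of LApcL cells with Pigr and 87.3% of those without. In LApc, the corresponding shares for Gm43305 were 38.4% and 24.8%.

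**Figure D4:**
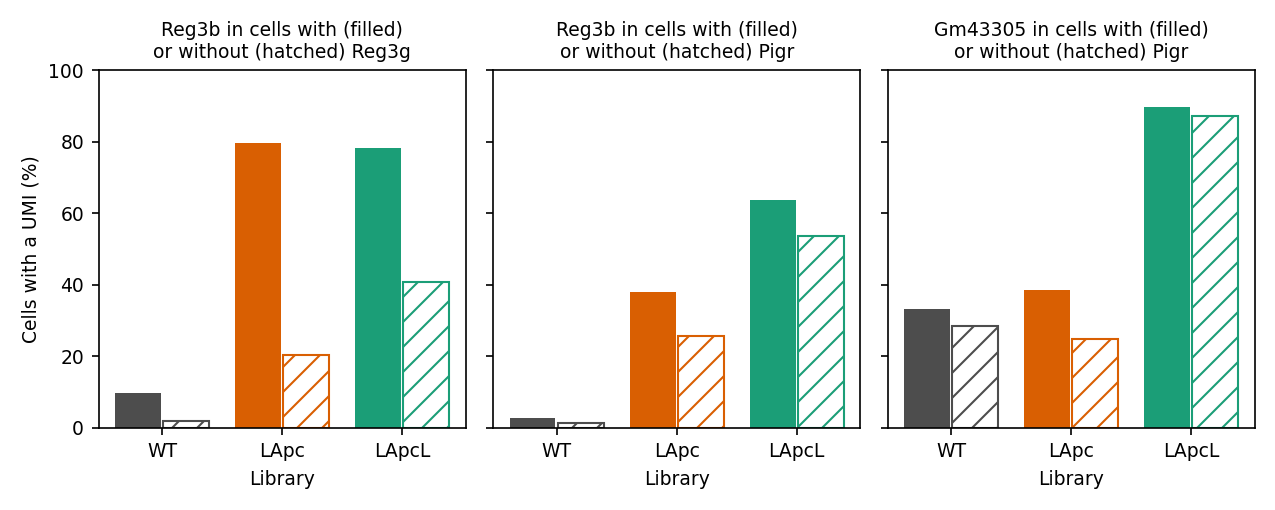
Share of cells (%) in which a second gene was detected, among cells with (filled bars) and without (hatched bars) a first gene, for each library at 10000 UMIs per cell. Reg3b with Reg3g shows the widest gap, 79.6% against 20.2% in LApc, and the pairs with Pigr show narrow gaps in LApcL.

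Counted together, all 4 genes were present in 441 LApcL cells (22.8%), 15 LApc cells (0.694%) and 1 WT cell. No member was detected in 2.43% of LApcL cells, 52.2% of LApc cells and 9.35% of WT cells. In WT, 56.5% of cells had exactly 1 of the 4, against 30.1% in LApc and 15.6% in LApcL.

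The cells fell into 11 clusters, which were built without the 4 genes and their relatives among the features. Named from fixed markers were cluster 1 (enterocyte-like, 729 WT cells), cluster 2 (enteroendocrine-like, 37 WT cells), cluster 3 (Paneth-like, in all libraries, also led by the goblet genes Spink4, Tff3 and Agr2), cluster 8 (proliferating/TA-like) and cluster 9 (stem-like, led by Col14a1, Sfrp5 and Lgr5, and also by Gm43305 itself). The others are given by number and leading genes. Only cluster 3 held at least 20 cells of all 3 libraries (31 WT, 39 LApc and 81 LApcL cells).

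In WT, Pigr was 455 CPM in the enterocyte-like cluster, 415 CPM in cluster 0 (led by Olfm4 and Cps1), 242 CPM in the enteroendocrine-like cluster and 209 CPM (183 to 238) in the Paneth-like cluster. Pigr was thus present in every WT cluster, and the 308 WT cells without the enterocyte gene Fabp1 at 10000 UMIs per cell still had 343 CPM, compared with 461 CPM in the 900 cells with one. In the Paneth-like cluster, the LApcL cells had 303 CPM (281 to 326) and the LApc cells 45.0 CPM (33.3 to 59.5), so that LApcL lay above WT there. The whole WT library had 2 UMIs of the Paneth marker Defa22 and 1 of Defa21. Whether the WT cells of this cluster are of the same type as the others was not tested. Reg3b in WT was 29.0 CPM in the enterocyte-like cluster and at most 1.89 CPM in the others. Few cells carried that level, since 3.57% of the enterocyte-like cells had a Reg3b UMI at 10000 UMIs per cell.

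Clusters with at least 20 cells in both LApc and LApcL numbered 7. Pigr was higher in LApcL in all 7, by 2.85-fold in cluster 4 (led by Car1 and Plaur) to 11.1-fold in the proliferating/TA-like cluster. In that cluster LApc had 18.8 CPM of Pigr and LApcL had 209 CPM. Reg3g was higher in all 7, by 2.30-fold to 11.2-fold, and Gm43305 was higher in all 7, by 4.10-fold to 9.97-fold. These folds are of the contrast that chose the genes and describe where in the libraries it lay.

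Reg3b behaved otherwise. It was higher in LApcL in 6 of the 7 clusters, with a median fold of 1.67, and in cluster 6 (led by Vim, Prss56 and Prox1) it was lower, at 126 CPM over 801 LApc cells and 76.3 CPM over 20 LApcL cells (fold 0.604, interval 0.442 to 0.808). In cluster 5 (led by Uhrf1 and Mcm genes) the fold was 1.12 (1.10 to 1.15), from 1472 to 1656 CPM. The highest Reg3b level was in cluster 4, at 1789 CPM in LApc and 2632 CPM in LApcL.

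Clusters 6 and 7 (led by Npy and Mt3) held 53.0% of LApc cells but 1.04% of LApcL cells, and the LApc cells in them had 95.6 CPM of Reg3b, 6.37 CPM of Reg3g and 6.18 CPM of Pigr. These clusters were set apart after their values were seen, for the lowest Reg3b level among the larger LApc clusters. Leaving them out therefore lowers the Reg3b fold by construction. Outside them, the LApc cells had 1418 CPM of Reg3b and the LApcL cells 1612 CPM, a fold of 1.14 (1.13 to 1.15). There the fold was 7.03 for Pigr, 3.53 for Reg3g and 6.94 for Gm43305. When the 7 clusters were weighted equally the folds were 5.54 for Pigr, 4.13 for Reg3g, 1.54 for Reg3b and 6.77 for Gm43305. Reg3b was nearest to an equal level in both settings, as it already was over all cells (1.97-fold).

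**Figure D5:**
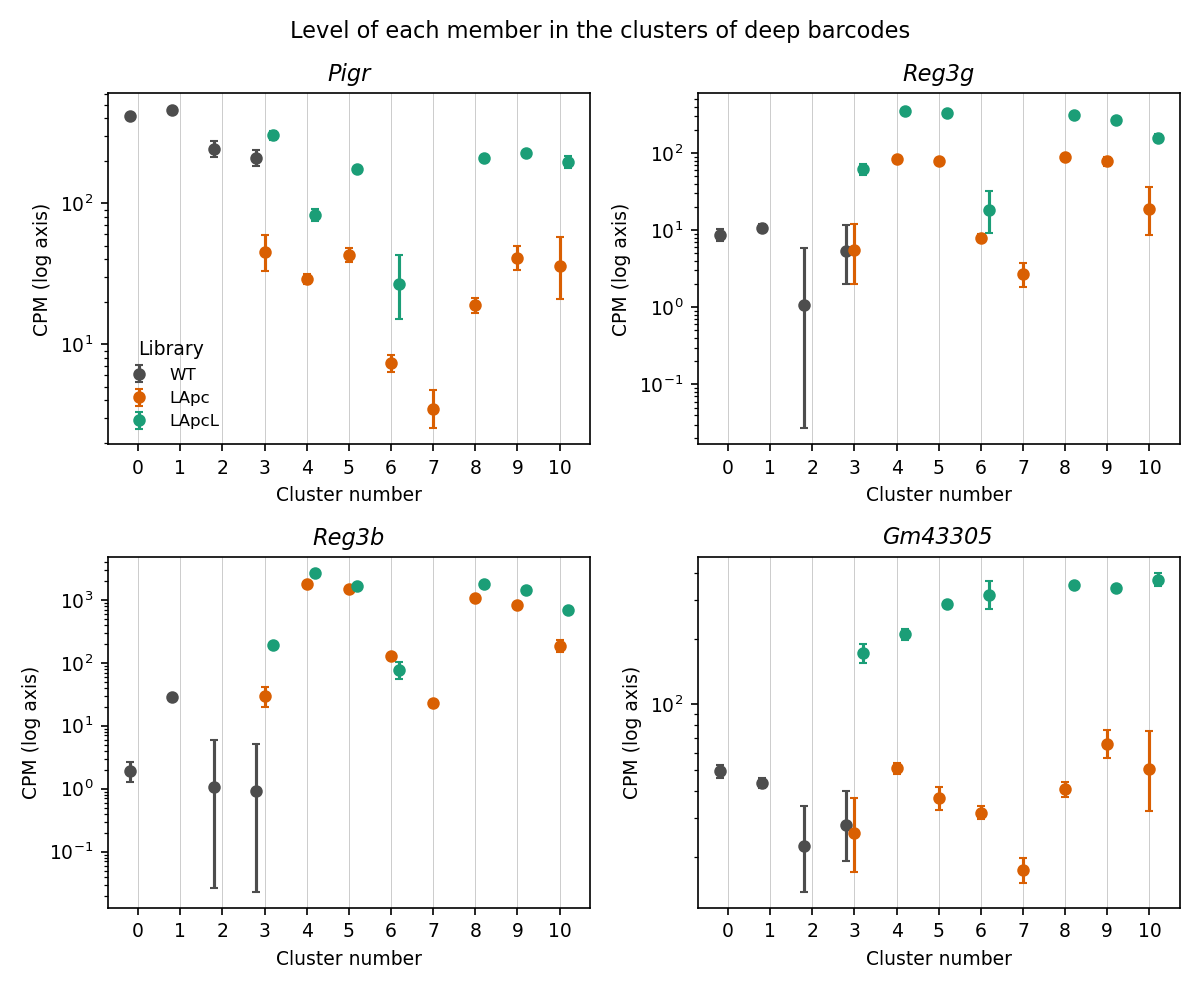
Level of each gene by cluster number, in CPM on a log axis, for each library with at least 20 cells in the cluster, with bars for the 95% Poisson interval. Pigr, Reg3g and Gm43305 are higher in LApcL than in LApc in all 7 clusters with both, and Reg3b is lower in LApcL in cluster 6.

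Cells were also split by the detection of a single gene at 10000 UMIs per cell, and the member levels were summed from all UMIs. In LApc, 309 cells with Npy detected had 226 CPM of Reg3b and 13.5 CPM of Reg3g, whereas 1852 cells without had 905 and 52.5 CPM. LApc cells with a Lef1 UMI (992 cells) had 300.1 CPM of Reg3b, and those without (1169 cells) had 1166 CPM. In LApcL this gap was narrow, with 1496 CPM in 693 cells with a Lef1 UMI and 1651 CPM in 1238 cells without. Pigr (212 against 198 CPM) and Gm43305 (351 against 307 CPM) were higher in LApcL cells with a Lef1 UMI, whereas in LApc they were 16.3 against 20.0 CPM and 37.0 against 38.2 CPM. A cell without a Lef1 UMI may still express Lef1.

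Pigr was higher in cells with Lgr5 in all 3 libraries. LApc cells with an Lgr5 UMI (462 cells) had 46.1 CPM of Pigr (43.2 to 49.2), and those without had 10.7 CPM (9.97 to 11.5). In LApcL the values were 238 CPM in 998 cells with Lgr5 and 169 CPM in 933 cells without, and in WT 482 and 425.5 CPM. In LApcL this was not particular to Pigr, since cells with Lgr5 also had more Reg3b (1884 against 1337 CPM), Reg3g (328 against 249 CPM) and Gm43305 (338 against 305 CPM). In LApc, Reg3g (54.8 against 44.9 CPM) and Gm43305 (51.2 against 33.9 CPM) were also higher with Lgr5, but Reg3b was lower (651 against 855 CPM). Reg3b was low in the few LApcL cells with the goblet mucin Muc2, at 249 CPM in 81 cells against 1646 CPM in 1850 cells, as were Reg3g (69.8 against 294 CPM) and Gm43305 (183 against 326 CPM), whereas Pigr was higher in them (240.2 against 201 CPM).

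Genes other than the 4 members whose per-cell level was most like that of a member in LApcL were ranked by Pearson's r over 1931 cells among 8078 genes, on the log scale. For Pigr these were Lypd8, an antibacterial surface protein of the gut epithelium (r = 0.31), and Slc12a2, an ion cotransporter counted here among stem cell markers (0.31), then Smoc2, Aldh1b1 and Lgals2 (0.28 to 0.24). In LApc the values for Lypd8 and Slc12a2 were 0.23 and 0.26, and in WT they were -0.07 and -0.03. For Reg3b they were Gpx2, a glutathione peroxidase of the epithelium (0.33 in LApcL, 0.43 in LApc and -0.07 in WT), and Prxl2a, Col14a1, Lgals4 and Clu (0.26 to 0.22). For Reg3g they were Prxl2a (0.25), Gpx2 (0.24), S100a10, Lgals4 and Cd81. Gpx2, Prxl2a and Lgals4 were named for both lectins. Gm43305 had no r above 0.21, which was that of Pdgfa. The points share a library and its depth: r with the UMI total of a cell was 0.20 for Reg3g and 0.22 for Reg3b, but -0.04 for Pigr and -0.01 for Gm43305.

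Lists of genes that act around the members are given by their counts past 2-fold in LApcL against LApc, beside the 1.49% higher and 3.76% lower over all genes, shares at which lists of this size would hold few or no such genes. Of 8 genes of the IL-22 and Stat3 pathway with at least 5 CPM, 0 passed 2-fold in either direction, with a median log2 ratio of 0.01. Stat3 itself was 24.5 CPM in WT, 59.3 CPM in LApc and 60.8 CPM in LApcL. The feedback gene Socs3 had a log2 ratio of 0.35. Of 13 innate sensing and NF-kB genes, 0 passed (median -0.04), with Il1r1, the interleukin-1 receptor, highest at 0.72 and Relb, an NF-kB subunit, lowest at -0.49. Of 9 interferon response genes, 0 passed (median 0.16), with the transcription factor Irf8 highest at 0.84. Ifit1, an interferon-induced antiviral gene under the 5 CPM limit and named after its values were seen, had 354 UMIs in LApc and 97 UMIs in LApcL.

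Among 9 inducible mucosal defence products with at least 5 CPM, 2 were over 2-fold higher in LApcL and 1 was over 2-fold lower, with a median of -0.03. The higher ones were Ang4, an antimicrobial ribonuclease of Paneth and goblet cells (70.5 CPM in LApc, 170 CPM in LApcL), and Lypd8 (66.4 and 145 CPM). The lower one was Cxcl5, a neutrophil chemokine, with 667 UMIs in LApc and 22 in LApcL. Lypd8 was 215 CPM in WT, so that it had, like Pigr, its highest level there and its lowest in LApc.

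Of 7 genes for the sorting of Pigr cargo, 0 passed 2-fold (median 0.00), and Rab3d, a secretory vesicle GTPase, was highest at 0.65. Of 11 epithelial transcription factors, 1 was over 2-fold higher, the intestinal homeobox gene Cdx2, at 96.3 CPM in WT, 75.6 CPM in LApc and 162 CPM in LApcL. Markers of other cell types also differed between LApcL and LApc: over 2-fold higher were 4 of 8 Paneth markers, 3 of 5 goblet markers and 1 of 5 stem markers (Lgr5, log2 ratio 1.35). Over 2-fold lower were 1 goblet marker, 1 of 2 enteroendocrine markers, 1 tuft marker and 1 endothelial marker, and 0 of 8 proliferation markers passed (median 0.66). Paneth markers summed to 241 CPM in WT, 1578 CPM in LApc and 3792 CPM in LApcL. The defensin gene Defa24 made up much of the difference between LApc and LApcL, at 327 CPM in LApc and 1825 CPM in LApcL, whereas Lyz1 (317 and 218 CPM) and Itln1 (141 and 83.7 CPM) were lower in LApcL. The part of the Paneth markers in the levels of the 4 genes was not tested beyond the cluster values above.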

How the data were processed

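Droplet-based 3′ single-cell libraries were made by the authors from trypsinized and sorted organoid cells, 1 library per genotype. The authors deposited raw UMI counts per gene and barcode. Cell Ranger is given as version 6.0.1 per the file headers and as 2.1.1 in the submitters' processing notes, with the mm10 (GRCm38) reference. The files hold 11411 (WT), 10706 (LApc) and 12068 (LApcL) barcodes.

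Barcodes present in more than 1 library were left out (3195 were in all 3), as were those under 10000 UMIs or over 20% mitochondrial UMIs (13 genes). The kept cells held 48895147, 90864428 and 80504226 UMIs, so that the floor of 3 counts is 0.0614, 0.0330 and 0.0373 CPM. UMIs were summed per library and scaled to CPM, and log2 ratios were taken after adding 1 CPM, which understates changes of low genes. Intervals are exact at the 95% level (Poisson, conditional binomial, Clopper-Pearson) and cover counting error only. Cells were thinned to 10000 UMIs, or to 500 beside shared barcodes. Clusters used scanpy 1.11.5 (2000 variable genes, 20 components, 20 neighbors, Leiden resolution 0.5) without integration, and a name needed 3 markers among the top 50 genes and 1 in the top 10. Doublets were not removed in the main values. They were scored with Scrublet as an alternative. Other tools were Python 3.11.15, numpy 2.4.6, scipy 1.17.1 and pandas 2.3.3.

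No test between groups was run. Named were the members, their relatives, the listed pathways and markers, up to 4 genes from each end of a list, chromosomal neighbors, and the 5 genes most like each member among genes other than the members in at least 10% of LApcL cells. Some genes that met this rule are not reported here. The members and lists were chosen with earlier results of these data known. The ratio step was tested on simulated data for LApcL against LApc with 10082 genes, of which 200 were changed 2-fold: 95.0% of the intervals held the true ratio and 200 directions were recovered. The simulation drew Poisson totals per gene without variation between cells or libraries, so it checks the calculation only. All 4 members and the 5 Reg relatives matched RefSeq promoter windows of 250 bases before to 50 after the start. Alternatives were a 5000-UMI minimum, a 20000-UMI minimum, a 10% mitochondrial limit, shared barcodes kept in, cells weighted equally, a pseudocount of 10 CPM, median-of-ratios scaling, removal of doublet scores with gene-count outliers, and cells with 0 Npy UMIs.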

Additional observations from a re-analysis of the deposited data

Results flagged for a closer look

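In barcodes outside the kept cells, which entered only the background shares and some alternatives, 3 of the 4 genes were above their WT level in LApcL. In LApc, intervals lay above those of WT only for Reg3b in both kinds of barcode and for Reg3g in shallow barcodes of 1 library. In barcodes found in more than 1 library, Reg3g was 41.2 CPM in LApcL (WT 4.44), Reg3b had 15.0 CPM in LApc with 127 CPM in LApcL (WT 0.120), and Gm43305 was 40.9 CPM in LApcL (WT 20.3).

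In barcodes of 1 library with under 10000 UMIs, Reg3g had 14.5 CPM in LApc with 59.0 CPM in LApcL (WT 4.62). In the same barcodes, Reg3b had 184 CPM in LApc with 299.7 CPM in LApcL (WT 3.93), and Gm43305 was 331 CPM in LApcL (WT 123). The Reg3g and Reg3b levels there were below those of the deeper cells of the same library, and that of Gm43305 in LApcL was like theirs (321 CPM). In WT (123 against 44.6 CPM) and in LApc (74.9 against 37.7 CPM), Gm43305 was higher in these shallow barcodes than in the deeper cells. The WT and LApc levels thus lay closer to that of LApcL there, but further from each other.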

How the results depend on the processing

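No direction of a member's ratio reversed under the alternatives run. Each group had 1 library, so no library could be left out. No paired analysis was possible because each group had 1 library and no test was run. The log2 ratios of LApcL against LApc ranged over 11 alternatives from 2.43 to 3.61 for Pigr, 1.81 to 2.83 for Reg3g, 0.18 to 1.20 for Reg3b and 2.73 to 3.16 for Gm43305. Over members and alternatives, 24 of these ratios moved by more than counting error and 20 did not. Against WT, 19 moved and 17 did not. The cause was not tested, except where cells or clusters were left out or reweighted by construction.

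With clusters weighted equally, chosen after seeing the data, Pigr was 2.43, Reg3g 2.03, Reg3b 0.62 and Gm43305 2.73. Without clusters 6 and 7, also chosen after seeing the data, the values were 2.77, 1.81, 0.18 and 2.77. With cells weighted equally they were 3.55 for Pigr, 2.83 for Reg3g and 1.20 for Reg3b. With a pseudocount of 10 CPM they were 2.90 for Pigr, 2.38 for Reg3g and 2.80 for Gm43305. A mitochondrial limit of 10% gave 2.78 for Reg3g, 1.17 for Reg3b and 3.16 for Gm43305. Without doublet scores and outliers they were 3.61 for Pigr, 0.84 for Reg3b and 2.99 for Gm43305. In cells with 0 Npy UMIs before thinning (1578 LApc cells) they were 3.30 for Pigr, 2.41 for Reg3g and 0.86 for Reg3b. A minimum of 5000 UMIs gave 0.95 for Reg3b.

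Against WT, Pigr was -1.13 at a minimum of 5000 UMIs, -1.16 at a mitochondrial limit of 10%, -1.03 with cells weighted equally, -1.05 with the pseudocount of 10 CPM, -1.54 with median-of-ratios scaling and -1.02 without doublet scores and outliers. In the settings of the 10% limit, equal cells, pseudocount and median of ratios, Reg3g was 4.98, 4.44, 3.91 and 4.32, and Reg3b was 6.13, 5.79, 5.81 and 5.90, with 6.17 without doublet scores and outliers. Gm43305 was 2.72 at 5000 UMIs, 2.95 at the 10% limit, 2.60 with the pseudocount and 2.37 with median of ratios.

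With genes at or above 20 CPM only, 82 genes in place of 155 were over 2-fold higher in LApcL than in LApc and 186 in place of 390 were lower. Shares of cells shifted by at most 4.72 percentage points under the alternatives other than no thinning. Scrublet's automatic threshold marked 0, 1 and 2 barcodes and so did not work, and the highest 298, 355 and 481 scores were removed instead. Depth limits Reg2, Reg3d and the Pigr relatives, which had under 100 UMIs per library.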

Other observations

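Reg4 was detected less in cells with Reg3g than in cells without it in all 3 libraries: 8.43% against 14.0% in WT (7 of 83 cells with Reg3g, whose WT share was at background), 2.61% against 5.28% in LApc and 1.87% against 5.88% in LApcL. Reg1 went the other way, at 13.3% against 7.29% in WT, 6.96% against 0.466% in LApc and 4.26% against 1.24% in LApcL. Of the 21 LApcL cells with a Reg3a UMI, 19 also had Reg3b, against 59.2% of cells without Reg3a. In LApc 6 of 6 did, against 26.4% of cells without Reg3a. In WT, where Reg3a was highest, only 13 of 169 did (7.69%), against 1.64% of cells without Reg3a. These cells share a library and its depth, and no test was run.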
